A study of Homo sapiens with 6 samples.

Results

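The 98 genes described here are the protein-coding genes of human chromosome 21 that were expressed in 2 HEK293 cell lines. They were taken from the authors' table of 58735 genes as the protein-coding genes of chromosome 21 with a mean of at least 1 FPKM (fragments per kilobase of gene length and per fixed number of fragments) over all 6 libraries. Of 231 protein-coding genes of the chromosome in that table, 106 reached this level, and 8 of these (LSS, PFKL and genes of the NDUF, ATP5, MRP and PSM families) were left out by name. The choice used the level over all libraries, and the chromosome was singled out because its genes were already known to lie lower in one line of these data, so their shared direction is given as a description.

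The study measured RNA by sequencing of poly-A selected libraries from HEK293, a human embryonic kidney line. One line stably expressed tensin 2 in which a tyrosine is replaced by glutamate (Y483E, 3 libraries), and the other stably expressed tensin 2 with phenylalanine in that place (Y483F, 3 libraries). Tensin 2 is a focal adhesion protein, glutamate is used to resemble phosphorylated tyrosine, and phenylalanine cannot be phosphorylated. A line without a tensin 2 construct was not analysed here. The labels do not say how many clones stood behind each line, so a difference between 2 clones and an effect of the replaced residue cannot be told apart. The titles call the libraries biological replicates without naming separate cultures, so each p-value measures the spread between these samples. Each line has libraries with the submitters' numbers 1, 4 and 5, called replicates 1, 2 and 3 here, and the labels leave the meaning of these numbers unsaid.

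Reads per library, recovered as whole numbers from the FPKM values, summed to between 17919298 and 23284592 in Y483E and between 17204498 and 20274593 in Y483F. A member had between 21 and 17535 reads in a library, with a median of 1284, so counting error was small for most of them. TNS2, which the constructs encode, was at 0.753, 1.04 and 1.05 FPKM in Y483E against 1.07, 1.16 and 1.16 in Y483F, and reads of the construct and of the cell's own gene are not told apart. These levels lie at about the minimum required of the members, so the RNA values do not by themselves show strong expression of a construct in either line. The HEK293 label was checked against markers of the line. VIM (59.7 to 71.5 FPKM over the 6 libraries), NEFL (38.0 to 49.7), KRT8 (38.3 to 46.7) and KRT18 (27.3 to 30.4) were present. NEFM was at most 0.314 FPKM and PAX2 at most 1.34. Of markers of other cell types, the blood cell markers PTPRC, CD3E and HBB were listed at 0 in every library. ALB was at most 0.0494 FPKM and PECAM1 at most 0.0111, while COL1A1 was at 0.612 to 0.776, above NEFM. Reads of mitochondrially encoded genes made up 2.11, 2.15 and 1.23% of the reads in Y483E replicates 1, 2 and 3, and 2.05, 3.27 and 3.11% in Y483F replicates 1, 2 and 3. Their part in the differences below was not tested. Fewer cells with a transcript and less of it per cell cannot be told apart in such bulk samples.

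Chromosome 21 is the smallest human autosome. Its genes are known mainly from Down syndrome, in which the whole chromosome is present in an extra copy and the RNA of many of its genes rises with the number of copies. The genes have no shared function. They include the superoxide dismutase SOD1, the amyloid precursor APP, the kinase DYRK1A, a cluster of interferon receptors, nucleosome-binding and ETS family transcription factors, and several factors for ribosome assembly and RNA processing. DNA copy number was not measured in these libraries.

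Most of the 98 genes were slightly lower in Y483E than in Y483F. On the log2(FPKM + 1) scale 89 genes were below 0 and 9 were not, beside 47.2% of all 12833 genes tested that were below 0. The median log2 difference was -0.13, with quartiles at -0.21 and -0.057, against a median of 0.0070 and quartiles at -0.068 and 0.074 over all genes tested. In FPKM the median difference was -10.5% of the Y483F level, against 0.513% over all genes. The differences were small, and spread about as widely as those of all genes, with 29 genes below -0.2, 34 between -0.2 and -0.1, 26 between -0.1 and 0, and a median standard error of 0.065 for a single gene.

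The same shift was visible in each library. The median of the 98 genes lay at -0.038, -0.086 and -0.065 log2 units in Y483E replicates 1, 2 and 3, relative to the mean over all 6 libraries, and at 0.077, 0.056 and 0.060 in Y483F replicates 1, 2 and 3. All 3 Y483E medians were therefore below all 3 Y483F medians. The median of the other genes tested stayed between -0.017 and 0.0078 in the same libraries. The members took 1.148, 1.086 and 1.101% of all reads in Y483E and 1.26, 1.24 and 1.23% in Y483F. In every one of the 9 pairings of a Y483E with a Y483F library, between 75 and 85 of the 98 genes were lower in Y483E, and the median difference lay between -0.17 and -0.10, against -0.0073 to 0.027 for the other genes tested.

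**Figure D1:**
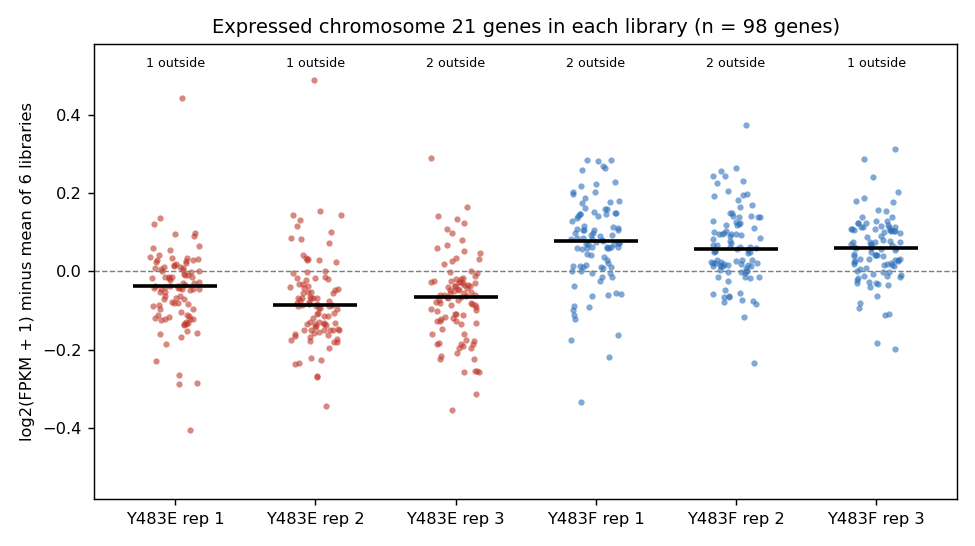
Each point is 1 of 98 chromosome 21 genes in 1 library, with the vertical axis giving its log2(FPKM + 1) minus its own mean over the 6 libraries, and each black bar is the median of the genes. The medians of Y483E replicates 1 to 3 lie at -0.038, -0.086 and -0.065 and those of Y483F replicates 1 to 3 at 0.077, 0.056 and 0.060, and genes beyond 0.5 are counted at the top.

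Single genes were tested in fits over all genes. With limma on log2(FPKM + 1) over the 6 libraries, 0 of 98 genes passed a Benjamini-Hochberg adjusted p of 0.05 (0% of all genes lower and 0% higher), and the smallest adjusted p among them was 0.257. At an unadjusted p under 0.05 limma put 45 of 98 genes lower and 0 higher, beside 5.7% of all genes lower and 6.51% higher. edgeR on the recovered reads also called 0 of 98 (0.0313% of all genes lower, 0.0125% higher), with 53 lower and 0 higher at an unadjusted p under 0.05 (7.61% and 5.78% of all genes). DESeq2 called 10 of 98, all lower, beside 0.51% of all genes lower and 0.435% higher. Every Y483E library lay below every Y483F library for 50 of the 98 genes (7.37% of all genes tested) and above for 0 (9.72%). Leaving out 1 library changed the edgeR count for 2 of them, to 12 genes without Y483E replicate 1 (0.324% of all genes lower, 0.739% higher) and 23 without Y483F replicate 1 (4.27% lower, 1.82% higher), all of them lower.

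The 10 genes called by DESeq2 were also the 10 members with an adjusted p under 0.05 in the authors' deposited table, whose fold changes come from the same model and are not separate evidence. That table listed 48 of the 98 genes at an unadjusted p under 0.05, and all 48 were lower in Y483E. Over all genes it listed 882 lower (1.5% of the 58735 genes) and 770 higher (1.31%). Those 58735 genes include genes below the level required of the members, so these shares are too low to set beside the 48. Among the genes tested by edgeR, 7.61% were lower and 5.78% higher at an unadjusted p under 0.05. The 10 called genes were PAXBP1, UBE2G2, PWP2, SON, HMGN1, SLC5A3, USP16, MCM3AP, SLC37A1 and C21orf58.

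PAXBP1 (ENSG00000159086, chromosome 21, 32733899 to 32771858, minus strand) encodes a nuclear protein that binds the transcription factors PAX3 and PAX7. It was at 15.7, 15.7 and 14.3 FPKM in Y483E replicates 1, 2 and 3, and at 18.05, 20.96 and 20.03 in Y483F. The groups did not overlap, and PAXBP1 had the lowest fold change of the set, -0.35 ± 0.066 (SE) in limma (adjusted p 0.257), -0.38 in edgeR (adjusted p 0.0890) and an adjusted p of 0.00041 in the authors' deposited table.

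UBE2G2 (44768580 to 44802019, minus strand) encodes a ubiquitin-conjugating enzyme of endoplasmic reticulum-associated degradation. Its level was 38.8, 36.0 and 34.9 FPKM in Y483E against 42.5, 44.8 and 43.2 FPKM in Y483F, again without overlap (-0.25 ± 0.050 in limma, with an adjusted p of 0.0065 in the authors' deposited table). SON (33542618 to 33577481, plus strand), a splicing cofactor of nuclear speckles, was at 48.35, 45.002 and 46.57 FPKM in Y483E against 52.06, 58.01 and 54.40 in Y483F (-0.23 ± 0.053, adjusted p 0.0115 in the authors' deposited table). Its highest Y483E library stayed below its lowest Y483F library. HMGN1 (39342315 to 39349647, minus strand), a nucleosome-binding protein, was at 131, 121 and 117 FPKM in Y483E against 148, 142 and 140 in Y483F (-0.22 ± 0.053, adjusted p 0.0217 in the authors' deposited table).

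USP16 (29024629 to 29054488, plus strand), which removes ubiquitin from histone H2A, had 25.1, 22.9 and 22.6 FPKM in Y483E against 29.1, 27.1 and 27.9 in Y483F. MCM3AP (46235126 to 46286297, minus strand), a factor of mRNA export, had 29.04, 25.48 and 26.77 FPKM in Y483E against 32.1, 32.0 and 31.3 in Y483F. Both were lower in every Y483E library, with adjusted p-values of 0.0233 and 0.0266 in the authors' deposited table. The membrane transporters SLC5A3, which takes up myo-inositol, and SLC37A1, a phosphate-linked glucose 6-phosphate antiporter, were weakly expressed. SLC5A3 was at 5.71, 4.75 and 4.97 FPKM in Y483E against 6.18, 6.92 and 6.39 in Y483F (-0.29 ± 0.075, adjusted p 0.0217 in the authors' deposited table). SLC37A1 was at 3.08, 2.59 and 2.72 FPKM in Y483E against 3.93, 3.66 and 3.55 in Y483F (-0.31 ± 0.072, adjusted p 0.0429 in the authors' deposited table). For each of these transporters the groups did not overlap.

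Of the called genes above, PAXBP1, SON, HMGN1 and MCM3AP each overlapped an expressed gene on the opposite strand. Whether the libraries kept the strand is not stated, so reads of such genes can have been mixed. Every called gene differed less between replicate 1 of each line than in the other replicates. Examples are SON (log2 difference -0.10 against -0.29) and SLC5A3 (-0.096 against -0.38). The remaining called genes have further limits. PWP2, a ribosome assembly factor, had 13.0, 10.8 and 13.1 FPKM in Y483E against 16.4, 16.7 and 14.5 in Y483F (-0.35 ± 0.086 in limma, adjusted p 0.0073 in the authors' deposited table), but 95.9% of its 31-base words also stood in the annotated gene FP565260.1, so that reads can have been split between them. With the reads of both added, the log2 ratio of reads scaled to library size was -0.36. C21orf58, a gene of little known function next to PCNT, had 19.0, 19.1 and 17.4 FPKM in Y483E against 18.7, 27.5 and 26.3 in Y483F (-0.35 ± 0.14, adjusted p 0.0496 in the authors' deposited table), and Y483F replicate 1 lay among the Y483E libraries.

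**Figure D2:**
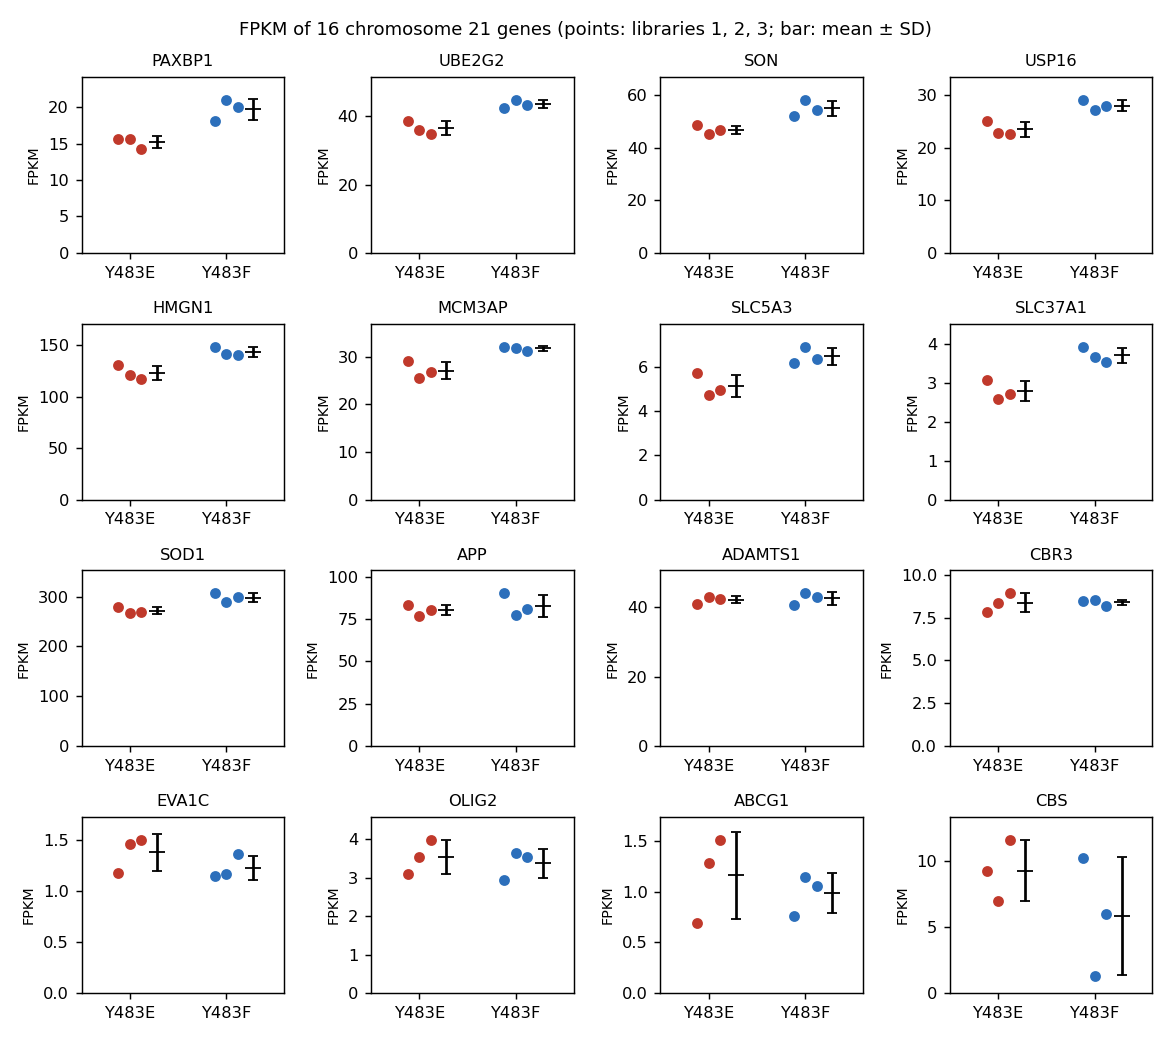
FPKM of 16 chromosome 21 genes, with 1 point per library (replicates 1, 2 and 3 from left to right) and the mean ± SD beside them, Y483E left of Y483F and each vertical axis starting at 0. The first 9 panels (PAXBP1 to SOD1) show groups that do not overlap, such as PAXBP1 at 14.3 to 15.7 in Y483E against 18.05 to 20.96 in Y483F, while APP, ADAMTS1, CBR3, EVA1C, OLIG2, ABCG1 and CBS overlap.

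Start regions are shown for 3 genes that were lower in Y483E and for 1 that was not (EVA1C), since members that move together can be compared at their promoters. RefSeq promoter windows (GRCh38.p14, 250 bases before to 50 after the start) were matched for 67 of the 98 genes. The motifs searched on both strands were the ETS motif CCGGAAG, which the chromosome 21 gene GABPA is known to bind, the GC box GGGCGG, the CCAAT box CCAAT and the ATF4 element TGATGNAA, and none of these strings contains another. Capitals mark CCGGAAG and CCAAT or their reverse complements.
UBE2G2, chr21:44801771-44802070, minus strand: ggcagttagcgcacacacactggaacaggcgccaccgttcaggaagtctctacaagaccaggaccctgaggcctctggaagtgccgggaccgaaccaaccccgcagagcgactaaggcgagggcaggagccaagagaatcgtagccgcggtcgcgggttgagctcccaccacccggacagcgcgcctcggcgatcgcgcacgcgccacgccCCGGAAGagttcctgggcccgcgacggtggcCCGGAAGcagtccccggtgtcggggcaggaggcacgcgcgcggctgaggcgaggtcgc
GABPA, chr21:25734722-25735021, plus strand: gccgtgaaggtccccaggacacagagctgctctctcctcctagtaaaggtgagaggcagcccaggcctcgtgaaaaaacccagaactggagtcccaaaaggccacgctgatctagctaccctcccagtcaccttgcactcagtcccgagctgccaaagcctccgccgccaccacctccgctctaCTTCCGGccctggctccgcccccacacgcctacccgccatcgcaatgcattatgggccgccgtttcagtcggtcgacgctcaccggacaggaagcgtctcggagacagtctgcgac
SON, chr21:33542788-33543087, plus strand: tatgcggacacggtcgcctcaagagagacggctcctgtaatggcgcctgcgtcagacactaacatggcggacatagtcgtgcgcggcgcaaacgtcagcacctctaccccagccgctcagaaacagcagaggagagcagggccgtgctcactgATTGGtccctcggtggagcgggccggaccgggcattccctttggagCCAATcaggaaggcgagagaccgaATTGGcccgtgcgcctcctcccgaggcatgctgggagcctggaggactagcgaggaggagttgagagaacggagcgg
EVA1C, chr21:32412456-32412755, plus strand: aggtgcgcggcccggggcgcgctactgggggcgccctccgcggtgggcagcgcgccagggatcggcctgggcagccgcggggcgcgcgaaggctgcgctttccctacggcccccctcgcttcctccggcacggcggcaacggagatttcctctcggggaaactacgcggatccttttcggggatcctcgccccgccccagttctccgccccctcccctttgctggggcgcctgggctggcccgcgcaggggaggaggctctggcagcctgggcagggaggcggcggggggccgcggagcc
UBE2G2 has 2 ETS matches and GABPA has 1. SON has 3 CCAAT matches, and 245 bases of its window are shared, on the opposite strand, with that of GART, so the genes start back to back. EVA1C has 2 GC boxes and neither marked motif.

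The ETS motif stood in 17 of the 67 matched promoters (25.4%), against 10.7% of all 27305 RefSeq windows and 20.99% of the 8696 windows of expressed protein-coding genes on other chromosomes. It stood in 12 of the 39 matched genes whose Y483E libraries all lay below their Y483F libraries and in 5 of the other 28. GC boxes were found in 70.1% of matched members (44.6% of all windows, 72.9% of expressed genes elsewhere), CCAAT in 28.4% (35.7% and 37.3%) and the ATF4 element in 1.49% (3.67% and 1.53%). These matches describe the letters of the windows only.

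By function, a grouping made for this description, genes for RNA processing and ribosome assembly were lower in 14 of 15 cases, with a median log2 difference of -0.19. The 4 most abundant are RRP1B, FAM207A, RRP1 and SON. RRP1B, a nucleolar protein, was at 90.4, 74.0 and 78.5 FPKM in Y483E against 97.8, 88.1 and 91.2 in Y483F (-0.19 ± 0.079, limma adjusted p 0.400), with Y483E replicate 1 inside the range of Y483F. RRP1, its close relative in ribosome assembly, was at 60.5, 52.2 and 49.8 FPKM in Y483E against 64.5, 61.4 and 61.1 in Y483F (-0.20 ± 0.074, limma adjusted p 0.356). FAM207A, related to a yeast factor of pre-ribosome export, was at 69.1, 67.0 and 65.2 FPKM in Y483E against 78.5, 71.3 and 77.8 in Y483F. RRP1 and FAM207A did not overlap between the lines, and 37.7% of the 31-base words of FAM207A stood in another gene. BTG3, an inhibitor of proliferation, was level at 12.5, 15.7 and 16.3 FPKM in Y483E against 15.0, 15.4 and 14.1 in Y483F (-0.0074 ± 0.096).

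Genes of protein folding and turnover were lower in 10 of 10 cases, with a median of -0.14. CCT8, a subunit of the cytosolic chaperonin, was at 249.9, 225.1 and 236.7 FPKM in Y483E against 289.6, 254.7 and 256.6 in Y483F (-0.17 ± 0.067, limma adjusted p 0.384). CSTB, an inhibitor of cathepsins, was at 43.8, 43.2 and 42.7 FPKM in Y483E against 47.3, 47.3 and 47.8 in Y483F, a difference larger than the spread within either line (-0.13 ± 0.035, limma adjusted p 0.279). USP25, a deubiquitinase, had 3.32, 3.14 and 3.33 FPKM in Y483E against 4.277, 4.071 and 3.996 in Y483F (-0.26 ± 0.057). CCT8, of whose words 23.4% stood in another gene, CSTB and USP25 kept the lines apart in every library, whereas SUMO3, a ubiquitin-like modifier, overlapped at 37.6, 31.5 and 34.4 FPKM in Y483E against 38.98, 33.73 and 34.97 in Y483F.

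Genes of transcription and chromatin were lower in 20 of 21 cases (median -0.12), and for 11 of the 21 every Y483E library lay below every Y483F library (7.37% of all genes). MIS18A, which prepares centromeric chromatin, was at 56.8, 47.7 and 50.8 FPKM in Y483E against 57.1, 52.9 and 53.0 in Y483F, and CHAF1B, a histone chaperone subunit, at 28.8, 30.6 and 29.2 against 31.1, 29.2 and 29.5. These overlapped. GABPA, the ETS factor whose start is shown above, was at 21.2, 18.5 and 18.2 FPKM in Y483E against 25.3, 21.2 and 21.9 in Y483F (-0.22 ± 0.083, limma adjusted p 0.360), with its highest Y483E library just above its lowest Y483F library. SETD4, a lysine methyltransferase, was at 5.77, 5.11 and 4.69 FPKM in Y483E against 6.16, 6.48 and 6.71 in Y483F (-0.27 ± 0.075, limma adjusted p 0.298). ETS2, another ETS factor, was at 14.9, 14.8 and 14.5 FPKM in Y483E against 16.7, 16.6 and 17.0 in Y483F (-0.17 ± 0.039, limma adjusted p 0.257). RUNX1, a regulator of blood formation that is weakly expressed in this kidney line, was at 2.28, 2.13 and 2.22 FPKM in Y483E against 2.58, 2.68 and 2.84 in Y483F.

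Genes of metabolism and redox were lower in 14 of 17 cases (median -0.12). SOD1, which disposes of superoxide and was the most abundant member, was at 279, 267 and 269 FPKM in Y483E against 306, 289 and 298 in Y483F (-0.13 ± 0.045, limma adjusted p 0.350). GART, an enzyme of purine synthesis, was at 57.9, 55.9 and 57.7 FPKM in Y483E against 65.9, 60.2 and 61.0 in Y483F (-0.12 ± 0.047, limma adjusted p 0.365). The carbonyl reductase CBR1 was at 35.0, 32.6 and 32.9 FPKM in Y483E against 40.7, 35.8 and 35.8 in Y483F. All these, and the folate transporter SLC19A1 at 22.0, 19.4 and 19.3 against 23.1, 23.3 and 23.4, kept the lines apart. CBR3, the neighbour and paralog of CBR1, did not, at 7.84, 8.37 and 8.91 FPKM in Y483E against 8.44, 8.51 and 8.20 in Y483F (-0.0028 ± 0.056).

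Genes of receptors, adhesion and matrix had the median nearest to 0 of the 8 functional groups over the 6 libraries, at -0.061, with 11 of 12 lower and 3 of 12 without overlap (7.37% of all genes). APP, the precursor of the amyloid peptide, was at 83.3, 77.1 and 80.5 FPKM in Y483E against 90.1, 77.3 and 80.7 in Y483F (-0.040 ± 0.064, limma adjusted p 0.834). ADAMTS1, a secreted metalloprotease that lies beside it, was at 40.9, 42.9 and 42.2 FPKM in Y483E against 40.5, 43.9 and 42.9 in Y483F (-0.013 ± 0.045). Of the interferon receptor cluster, IFNAR1 was at 14.8, 13.1 and 12.7 FPKM in Y483E against 17.8, 14.9 and 15.3 in Y483F (-0.23 ± 0.082), without overlap, while IFNGR2 was at 17.8, 20.5 and 21.5 against 19.8, 19.8 and 20.8 (-0.018 ± 0.070), with overlap. CXADR, an adhesion protein and virus receptor, was at 5.599, 4.345 and 4.775 FPKM in Y483E against 6.76, 5.68 and 5.79 in Y483F (-0.26 ± 0.096), and POFUT2, which adds O-fucose to secreted proteins, at 8.08, 7.69 and 6.54 against 8.55, 10.2 and 9.59 (-0.31 ± 0.089). None of these passed the adjusted threshold in limma.

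Signalling genes were lower in 5 of 5 cases (median -0.13). DYRK1A, a dosage-sensitive kinase studied in Down syndrome, was at 4.05, 3.83 and 3.92 FPKM in Y483E against 4.38, 4.25 and 4.57 in Y483F (-0.13 ± 0.055, limma adjusted p 0.406), without overlap. TIAM1, an activator of RAC, was at 12.02, 10.27 and 10.18 FPKM in Y483E against 14.5, 11.6 and 12.1 in Y483F, and RCAN1, an inhibitor of calcineurin, at 7.62, 7.41 and 7.48 against 8.24, 7.24 and 7.63. Genes of membrane traffic were lower in 9 of 11 cases (median -0.13). Among them TMEM50B was at 10.8, 8.17 and 7.39 FPKM in Y483E against 12.1, 9.94 and 10.7 in Y483F (-0.30 ± 0.13), with overlap, and VPS26C, a subunit of an endosomal sorting complex, at 6.75, 6.59 and 6.74 against 7.37, 7.55 and 7.27 (-0.13 ± 0.045), without. Genes of the centrosome, cilium and genome duplication were lower in 5 of 5 cases (median -0.21), but their median was -0.042 between the libraries numbered 1 and -0.29 in those numbered 4 and 5. Of these DONSON, a replication factor, was at 34.0, 35.0 and 36.0 FPKM in Y483E against 38.9, 39.4 and 37.5 in Y483F, and CFAP298, a gene of motile cilia, at 11.72, 11.99 and 12.11 against 13.4, 13.7 and 13.9.

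Other members of these groups had differences of the same order. SCAF4, a factor of transcript ends, was at 23.9, 24.03 and 24.4 FPKM in Y483E against 25.98, 30.05 and 28.6 in Y483F (-0.22 ± 0.057, limma adjusted p 0.278), without overlap. N6AMT1, a methyltransferase of the translation release factor, was at 7.11, 7.25 and 7.77 FPKM in Y483E against 8.55, 8.79 and 8.77 in Y483F (-0.21 ± 0.050, limma adjusted p 0.262), and the kinase HUNK at 3.28, 3.72 and 3.59 against 4.252, 4.195 and 4.237 (-0.21 ± 0.060). Both kept the lines apart. PRDM15, a zinc finger regulator, was at 2.42, 2.14 and 1.95 FPKM in Y483E against 2.68, 2.81 and 2.73 in Y483F (-0.24 ± 0.075), and MORC3, a nuclear ATPase, at 7.15, 6.14 and 6.42 against 7.71, 7.74 and 7.55 (-0.20 ± 0.061). PDXK, which makes pyridoxal phosphate, was at 13.35, 14.04 and 14.2 FPKM in Y483E against 15.4, 15.8 and 15.04 in Y483F (-0.14 ± 0.045). These 3 did not overlap either. The most abundant gene of membrane traffic, PTTG1IP, did overlap, at 57.6, 52.98 and 54.1 FPKM in Y483E against 62.7, 54.6 and 57.1 in Y483F (-0.079 ± 0.061), as did the collagen chain COL6A1, at 20.4, 21.1 and 20.8 against 19.9, 24.1 and 24.8 (-0.13 ± 0.080).

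The 9 genes that were not lower in Y483E were GATD3B, U2AF1L5, EVA1C, OLIG2, SMIM11A, DOP1B, SH3BGR, ABCG1 and CBS. None passed the adjusted threshold over the 6 libraries in limma or edgeR, and ABCG1, DOP1B, OLIG2, SH3BGR and SMIM11A changed sign under at least 1 alternative setting or without 1 library. They fell into 2 kinds. GATD3B, U2AF1L5, SMIM11A and CBS each shared at least 95.3% of their 31-base words with another annotated gene, a property of 7 of the 98 members (the others being CBSL, PWP2 and FP565260.1). The other 5 were weakly expressed, with means between 1.00 and 6.07 FPKM. All 49 members above the median level of 8.62 FPKM were lower, against 40 of the 49 at or below it. In the other expressed protein-coding genes, 41.4% above that level and 47.1% at or below it were lower. The 5 weakly expressed genes had standard errors of 0.066 to 0.16, against a median of 0.065 over the members. How much this spread adds to the pattern was not tested. Of the 91 members without a near-identical copy, 86 were lower.

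The split of reads between near-identical copies differed from library to library. CBS, the first enzyme of transsulfuration, was at 9.23, 6.98 and 11.6 FPKM in Y483E against 10.2, 1.27 and 5.99 in Y483F (0.84 ± 0.53, limma adjusted p 0.551). In the library with the fewest CBS reads, Y483F replicate 2, there were 155 reads at CBS and 663 at its copy CBSL, while in Y483F replicate 1 there were 1184 and 349. The reads of both copies added to 1404, 1677 and 1848 in Y483E and to 1533, 818 and 1213 in Y483F. The log2 ratio of the summed reads, scaled to library size, was 0.37 over the 6 libraries, -0.19 between the libraries numbered 1 and 0.71 between those numbered 4 and 5. So the direction of CBS with its copy differed between these pairs of libraries.

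SMIM11A, a small membrane protein gene whose words all stood in SMIM11B too, had 645, 720 and 35 reads in Y483E and 54, 276 and 661 in Y483F, with at most 3 reads at SMIM11B in any library, and libraries of 1 line differed more than the lines did. U2AF1L5, a copy of the splicing factor gene U2AF1, had 577, 1444 and 830 reads in Y483E against 518, 664 and 920 in Y483F. Together with U2AF1 itself, at 190, 183 and 139 reads against 143, 155 and 184, the log2 ratio of reads scaled to library size was 0.25. GATD3B had 135, 178 and 118 reads in Y483E and 113, 94 and 142 in Y483F, and added to its larger relative GATD3A it gave a log2 ratio of -0.086. How reads that fit both copies were counted is not stated in the labels, so all these values are uncertain.

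**Figure D3:**
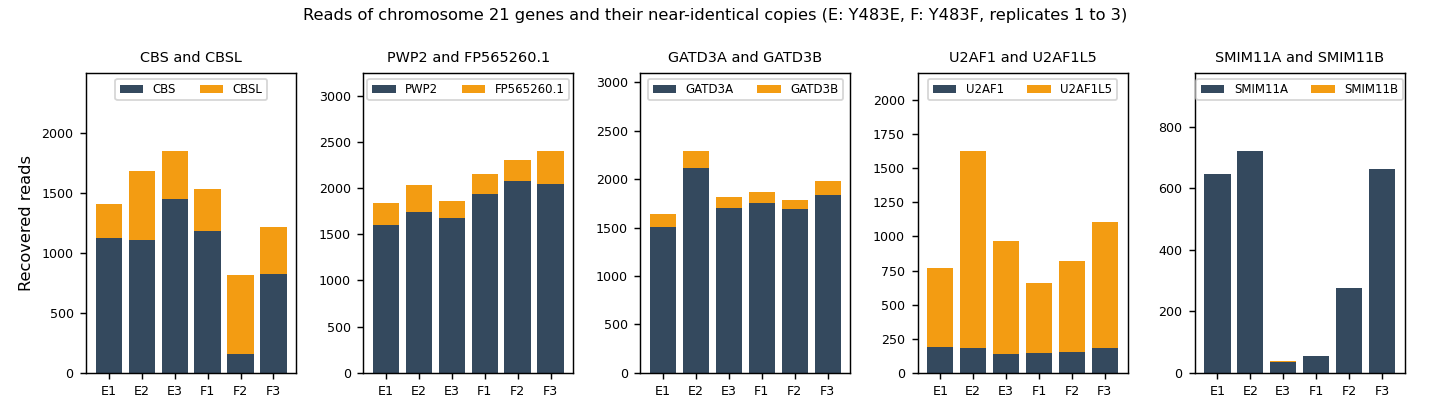
Stacked bars give the recovered reads at 5 chromosome 21 genes and at their near-identical copies in each library (E1 to E3 for Y483E, F1 to F3 for Y483F), with the vertical axis starting at 0. In Y483F replicate 2 CBS held 155 reads and CBSL 663, the reverse of the other libraries, and SMIM11A ranged from 35 to 720 reads.

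Among the members that were not lower and have no near copy, EVA1C, a heparin-binding membrane protein, was at 1.169, 1.458 and 1.496 FPKM in Y483E against 1.140, 1.162 and 1.355 in Y483F (0.096 ± 0.091). OLIG2, a neural transcription factor, was at 3.10, 3.54 and 3.98 FPKM in Y483E against 2.94, 3.65 and 3.55 in Y483F (0.052 ± 0.097), while its neighbour OLIG1 was at 2.53, 2.75 and 2.76 against 3.10, 2.88 and 3.00 (-0.12 ± 0.062). DOP1B, which acts in membrane traffic, was at 6.521, 5.719 and 6.003 FPKM in Y483E against 6.41, 6.08 and 5.68 in Y483F (0.0045 ± 0.066). For each of these 3 genes the lines overlapped, and the standard error was about as large as the difference or larger. SH3BGR, at 0.785, 1.20 and 1.09 against 1.09, 1.08 and 0.756 FPKM, and the sterol exporter ABCG1, at 0.685, 1.28 and 1.51 against 0.763, 1.14 and 1.05, were the members just inside the level required, together with EVA1C. Just outside were FP565260.3, SIK1B and U2AF1, at means of 0.974, 0.802 and 0.780 FPKM. U2AF1 had fewer reads than its near-identical copy U2AF1L5 in every library, so its level is uncertain.

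A further 14 genes were lower by less than 0.05 log2 units. APP, ADAMTS1, BTG3, IFNGR2, CBR3, RCAN1 and CHAF1B, given above, and PDE9A belong to them, and each of these 8 changed sign under at least 1 alternative setting or without 1 library, as did SUMO3. PDE9A, a phosphodiesterase for cyclic GMP, was at 3.23, 3.84 and 3.75 FPKM in Y483E against 3.40, 3.59 and 3.83 in Y483F. HLCS, which attaches biotin to carboxylases, was at 14.6, 14.01 and 14.1 FPKM in Y483E against 16.1, 13.6 and 14.4 in Y483F, and the arginine methyltransferase PRMT2 at 12.3, 12.7 and 12.5 against 12.8, 13.3 and 12.47. These overlapped. Of the 14, YBEY, an endoribonuclease, was the exception, at 19.1, 18.8 and 18.2 FPKM in Y483E against 19.2, 19.3 and 19.2 in Y483F, where the lines were apart by a narrow gap. A difference of the size of the median of the set was about 2 standard errors for a typical member, so that these genes are not shown to differ from the rest.

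The libraries numbered 1 and those numbered 4 and 5 share no sample and gave 2 separate comparisons of the lines. Between the libraries numbered 1, 85 of 98 genes were lower (51.5% of all genes tested) and the median was -0.12. In those numbered 4 and 5, 80 were lower (45.4% of all genes) and the median was -0.15. Lower in both were 71 genes (24.3% of all genes), 14 were lower in the libraries numbered 1 alone and 9 in the others alone. The 4 genes not lower in either were GATD3B, U2AF1L5, EVA1C and OLIG2. The size in one comparison was little related to that in the other, of which the first rests on 1 library per line. Across the 96 members other than CBS and SMIM11A the correlation (Pearson's r) of the differences was 0.072. Across all 98 Pearson's r was -0.30 and Spearman's rho -0.015. Over all genes tested Pearson's r was 0.025, so the weak relation is not particular to the members.

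Within the libraries numbered 4 and 5 edgeR called 46 members lower (7.98% of all genes) and 2 higher (7.07%), and limma called 19 lower (3.01%) and 0 higher (2.7%). The 2 called higher by edgeR were U2AF1L5 (0.38, adjusted p 0.0412) and CBS (1.31, adjusted p 0.0267), both with near-identical copies. With these libraries, RNA processing and ribosome assembly had 11 of 15 genes called lower, the centrosome group 4 of 5, protein folding and turnover 5 of 10, transcription and chromatin 9 of 21, membrane traffic 5 of 11, metabolism 6 of 17, signalling 2 of 5 and receptors and matrix 4 of 12. The 10 called genes of the authors' deposited table were all among the 46, but that table used these libraries too, so this is not separate evidence. The medians of the groups differed between the comparisons. For RNA processing and ribosome assembly the median was -0.11 between the libraries numbered 1 and -0.26 in those numbered 4 and 5, and for protein folding and turnover it was -0.20 and -0.11 in that order. Signalling had -0.20 and -0.15, metabolism -0.13 and -0.093, membrane traffic -0.12 and -0.13, transcription and chromatin -0.11 and -0.12, and receptors and matrix -0.092 and -0.053. PAXBP1 fell by 0.45 ± 0.048 (edgeR adjusted p 4.3e-05), UBE2G2 fell by 0.31 ± 0.038 (edgeR adjusted p 0.00011) and MCM3AP fell by 0.28 ± 0.038 (edgeR adjusted p 0.00023).

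The difference between these comparisons was itself tested, as the interaction of line and library number with 1 library of each line numbered 1. limma called 0 of 98 genes (0.0623% of all genes), with 16 at an unadjusted p under 0.05, beside 15.9% of all genes, which is near the members' share. By edgeR 3 were called, a share near that of all genes (2.01%). These were C21orf58, PCNT and ADARB1, all in the last 5 Mb window of the chromosome. PCNT, which encodes pericentrin of the centrosome, was at 24.5, 22.3 and 21.1 FPKM in Y483E against 24.5, 29.3 and 26.6 in Y483F. ADARB1, an enzyme that edits RNA, was at 6.37, 5.66 and 5.07 FPKM in Y483E against 6.25, 7.35 and 6.96 in Y483F. In these genes Y483E replicate 1 and Y483F replicate 1 were close, and the other libraries differed.

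Along the chromosome the genes were lower in nearly every stretch. In windows of 5 Mb by gene start, the median was -0.15 at 10 to 15 Mb (3 of 3 lower), -0.19 at 15 to 20 Mb (4 of 4), -0.060 at 25 to 30 Mb (9 of 9), -0.16 at 30 to 35 Mb (21 of 24), -0.11 at 35 to 40 Mb (15 of 17), -0.13 at 40 to 45 Mb (23 of 25) and -0.19 at 45 to 50 Mb (12 of 12). The exception was the short-arm window at 5 to 10 Mb, with a median of -0.00074 and 2 of 4 lower. Its members GATD3B, FP565260.1, CBSL and U2AF1L5 all have near-identical copies further along. Reads counted there can come from those copies, so this window does not show that the short arm differs. Over the 6 libraries no block of neighbouring single-copy genes stood at or above 0. EVA1C, OLIG2, DOP1B, SH3BGR and ABCG1 each lay between genes below 0, although CBR3 beside DOP1B was at -0.0028. This did not hold in the libraries numbered 4 and 5 alone. There the neighbours LTN1 and RWDD2B were at 1.9e-05 and 0.057, and the neighbours WRB and SH3BGR at 0.029 and 0.17.

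The windows ranked differently in the 2 comparisons. At 25 to 30 Mb the median was -0.20 between the libraries numbered 1 (8 of 9 lower) and -0.035 in those numbered 4 and 5 (7 of 9). At 45 to 50 Mb it was -0.028 between the libraries numbered 1 (8 of 12 lower) and -0.26 in those numbered 4 and 5 (11 of 12). The median GC content of the members' longest transcripts was 42.3% in the first of these windows and 57.3% in the second. The window at 15 to 20 Mb (39.9% GC) was like the first, with medians of -0.24 and -0.16 in the same order. GC content did not order all windows. At 10 to 15 Mb (35.8% GC, 3 genes) the medians were -0.10 and -0.19, and at 40 to 45 Mb (54.1% GC) they were -0.13 and -0.12. When each library was adjusted for the GC content and length of genes, an alternative chosen after seeing the data, the medians were -0.14 and -0.043 at 25 to 30 Mb and -0.039 and -0.24 at 45 to 50 Mb, in the same order of comparisons. These 2 windows thus lay closer together than before in the libraries numbered 1, and kept about the same distance in those numbered 4 and 5. The part of GC content in this was not tested further.

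**Figure D4:**
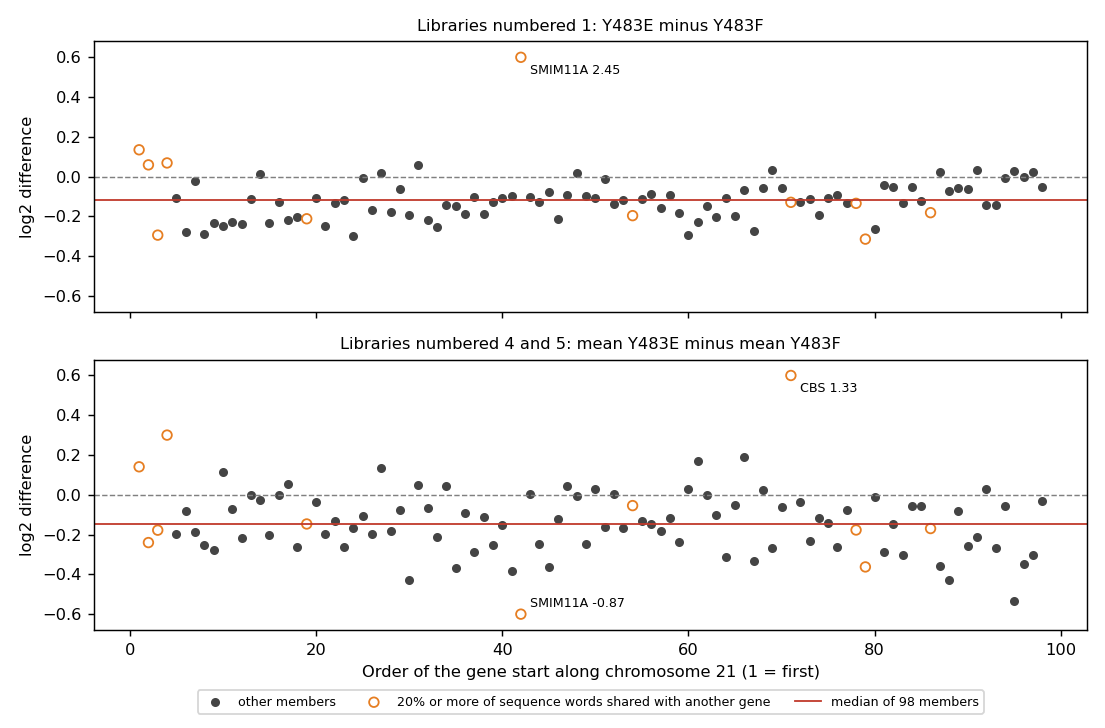
Each point is 1 of the 98 genes in the order of their start along chromosome 21, and the vertical axis gives the log2 difference Y483E minus Y483F between the libraries numbered 1 (top) and in those numbered 4 and 5 (bottom). Red lines are the medians, -0.12 and -0.15, open circles are genes that share 20% or more of their words with another gene, and genes beyond 0.6 are drawn at the edge with their value.

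Properties of the genes were compared by splitting the members at the median. The choice did not use GC content or gene length, but it did use the level, as a minimum. The median was -0.14 in the 49 members of lower GC content and -0.13 in the 49 of higher GC content, against 0.012 and 0.013 in the other expressed protein-coding genes on the same sides of 49.0% GC. Gene length gave -0.13 for the 49 shorter and -0.14 for the 49 longer genes, against 0.018 and 0.0055 in the other genes. Level gave -0.12 for the 49 lower and -0.15 for the 49 higher ones, against 0.0075 and 0.017. The shift was thus of like size on both sides of each split. Of the 98 genes, 26 overlapped another expressed gene on the opposite strand, and since the protocol names both a strand-keeping and a strandless library without saying which was used, reads of such pairs can have been mixed. SON with GART and DONSON, IFNGR2 with TMEM50B, COL18A1 with SLC19A1, and CBR1 with SETD4 are such pairs. Without these 26 genes the median was -0.13 with 63 of 72 lower.

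Chromosome 21 genes outside the set were lower too. All 8 genes left out by name were below 0 over the 6 libraries, in the libraries numbered 1 and in those numbered 4 and 5, with a median of -0.11. MRPL39, of the mitochondrial ribosome, was at 80.4, 73.5 and 70.7 FPKM in Y483E against 90.1, 83.5 and 80.6 in Y483F, and MRPS6 at 6.439, 6.355 and 5.996 against 7.99, 7.41 and 7.25. Neither overlapped between the lines, as was so for 4 of the 8 in all (7.37% of all genes tested). ATP5PO, LSS, PFKL and PSMG1 did overlap. Of 33 expressed genes of the chromosome that do not code for protein, 25 were lower, with a median of -0.18 and a wide range from -1.31 to 0.93. Their median was -0.069 between the libraries numbered 1 (21 of 33 lower) and -0.29 in those numbered 4 and 5 (26 of 33 lower).

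Beside the other chromosomes, 97 of the 106 expressed protein-coding genes of chromosome 21, the 8 left out by name included, were lower (91.5%), and their median of -0.13 was the lowest of 23 chromosomes. It was also the lowest in the libraries numbered 1 (-0.12) and in those numbered 4 and 5 (-0.15). Next came chromosome 20, with 79.6% of 304 genes lower and medians of -0.083 and -0.085 in these comparisons, and chromosome 13, with 72.4% of 199 lower and medians of -0.080 and -0.026. At the other end chromosome 18 had 7.01% of 157 genes lower and medians of 0.077 and 0.14. The medians of the other chromosomes lay between -0.017 and 0.037 over the 6 libraries. No test of 1 chromosome against another was made, since the chromosome was chosen with these values known.

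**Figure D5:**
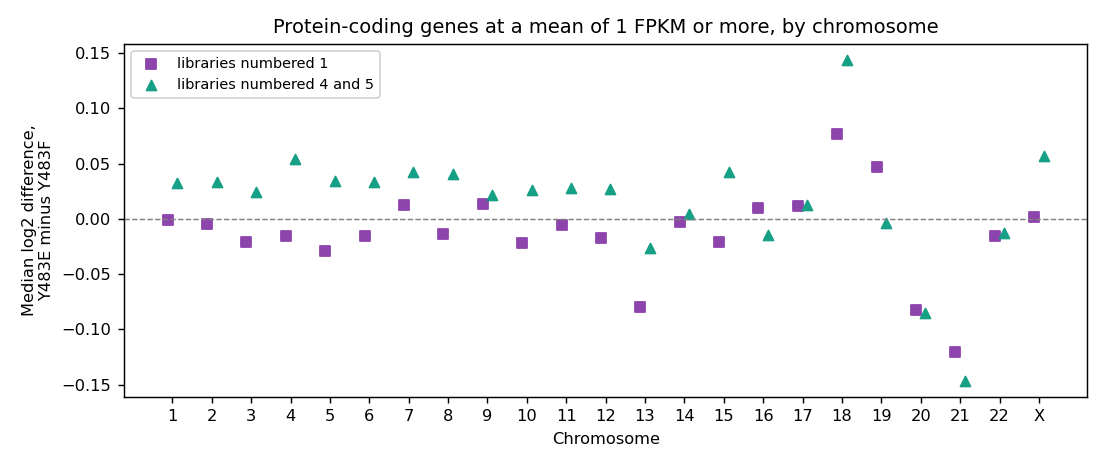
Median log2 difference Y483E minus Y483F of the expressed protein-coding genes of each chromosome, with squares for the libraries numbered 1 and triangles for those numbered 4 and 5, which share no sample. Chromosome 21 is lowest in both (-0.12 and -0.15), followed by chromosome 20 (-0.083 and -0.085), and chromosome 18 is highest in both (0.077 and 0.14).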

How the data were processed

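Messenger RNA of 6 HEK293 libraries, 3 per line, was measured by sequencing. The submitters' processing notes name DESeq and DESeq2, featureCounts 1.5.0-p3, StringTie 1.3.3b and HISAT2 2.0.5 without their roles. No genome build is named there. The positions of all 58735 genes in the authors' table equalled those of GENCODE 29 on GRCh38. The authors deposited FPKM values for every gene, per the file headers. A second deposited table holds, for 1652 genes, the authors' read counts, a signal of counts divided by 1 size factor per library, p-values with adjusted p-values, and log2 fold changes (Y483E over Y483F).

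Reads were recovered as FPKM times gene length times a library total worked out from the listed counts, and 100% of values above 0 were whole within 0.01 of a read. They equalled the authors' counts for all 1652 genes, which is no separate check, as these counts set the library totals. The main test was two-sided, by limma 3.58.1 on log2(FPKM + 1) with a mean-variance trend, over the 12833 genes that averaged 1 FPKM or more, with Benjamini-Hochberg adjustment over all of them. Fold changes of genes with low FPKM are understated on this scale. edgeR 4.0.16 (quasi-likelihood, TMM, SE from the fold change and its F statistic) and DESeq2 1.42.0 ran on the recovered reads in R 4.3.3. DESeq2 fold changes differed from the authors' by at most 5.2e-06. limma and edgeR were tested on simulated data with larger log2 changes than the members' median. That does not show how well they find changes of the members' size. Near-identical genes were found by the share of 31-base words of the longest GENCODE transcript that stood in another gene.

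The members, the role lists and the tests were chosen with earlier results of these data known. Named are the 12 lowest and 12 highest members, those called over 6 libraries or by the authors, those not lower in either comparison, the 4 most abundant of each role, the 3 nearest to the level required on each side, genes left out by name, and TNS2. Other members named (such as ETS2, RUNX1, IFNAR1, OLIG1, SCAF4, N6AMT1, HUNK, MORC3, PDXK, HLCS and YBEY) were chosen after their values were seen.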

Additional observations from a re-analysis of the deposited data

Results flagged for a closer look

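3 of the 98 genes, all at the far end of chromosome 21, were called by the edgeR interaction of line and number. That share is near the 2.01% of all genes tested, so it is not particular to these members. The value is the log2 difference of the libraries numbered 1 minus that of the libraries numbered 4 and 5, each Y483E over Y483F, and since each line has 1 library numbered 1, that fit takes its spread from the libraries numbered 4 and 5. C21orf58 had 0.58 ± 0.088 (edgeR adjusted p 0.0033), PCNT, which starts next to it on the other strand, had 0.36 ± 0.080 (edgeR adjusted p 0.0279), and ADARB1 had 0.44 ± 0.11 (edgeR adjusted p 0.0444). The differences behind these were 0.026, -0.00076 and 0.025 between the libraries numbered 1, and -0.53, -0.35 and -0.36 in those numbered 4 and 5. limma did not call any of them (adjusted p 0.182, 0.251 and 0.257).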

How the results depend on the processing

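The number of members lower in Y483E (89 of 98) stayed between 80 and 91 under every alternative that kept all members, and was 73 of 75 with a filter at 5 FPKM. The median of -0.13 stayed below 0 throughout. It lay beyond the spread between libraries of 1 line (SD 0.019) at -0.16 with a pseudocount of 0.1 and at -0.17 with edgeR on the recovered reads, on scales that shrink weakly expressed genes less. It was -0.13 without the 11 members that share at least 20% of their words with another gene (82 of 87 lower). Without 1 library it lay between -0.15 and -0.13.

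The count of called members did depend on the setting. limma called 0 in the stated fit, 41, all lower, with array weights, which weight libraries unequally (7.39% of all genes lower, 7.32% higher), and 19 in the libraries numbered 4 and 5 alone. edgeR called 0 in the stated fit, 28 with no filter on low counts (25 lower and 3 higher, beside 1.3% and 0.852% of all genes), 15, all lower, with a term for library number (0.521% of all genes lower, 0.503% higher) and 48 in the libraries numbered 4 and 5 alone, and DESeq2 called 10. Without 1 library edgeR called between 0 and 23 members, the highest without Y483F replicate 1, and limma 0 in each case. The interaction of line and number had 0 members in limma and 3 in edgeR. The cause of these differences was not tested, apart from the smaller number of libraries in some fits. Same-numbered libraries did not deviate together (correlations of 0.056, 0.14 and -0.095), so the numbers are not taken as pairs. With the replicate block limma and edgeR both called 0 members, and the median of -0.13 in limma did not change. Of the 55 members named by the stated rule, 14 changed sign under some alternative, none of them in a fit that called the gene. Members named after their values were seen are not in this count, and the libraries numbered 1 alone are not among its alternatives. Between those libraries C21orf58 (0.026), COL6A1 (0.032), FP565260.1 (0.059) and CBS (-0.13) also had the sign opposite to that over the 6 libraries. Among the members named after their values were seen, HLCS was at -0.043 over the 6 libraries and at 0.0047 in those numbered 4 and 5. The spread between libraries limits what single genes can show, since a difference of the median size is about 2 standard errors for a typical member.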

Other observations

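Of the expressed chromosome 21 genes that do not code for protein, 4 are given here, chosen after their values were seen. AP001628.1 was at 4.51, 4.67 and 3.62 FPKM in Y483E against 6.97, 11.1 and 9.14 in Y483F, a log2 difference of -0.92 (limma adjusted p 0.257), and LINC00205 was at 9.644, 10.03 and 9.779 against 11.12, 11.41 and 11.04 (-0.17, limma adjusted p 0.265). LINC01547 went the other way, at 5.20, 4.67 and 5.05 FPKM in Y483E against 3.94, 3.35 and 3.74 in Y483F (0.35, limma adjusted p 0.257). In each of these 3 genes the lines did not overlap. URB1-AS1 was at 14.3, 15.5 and 15.4 FPKM in Y483E against 15.9, 12.8 and 11.5 in Y483F (0.17), while URB1, a ribosome assembly factor and member of the set, was at 12.6, 11.7 and 12.7 against 14.3, 14.1 and 14.1 (-0.19 ± 0.046).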
